A study of Sorghum bicolor with 6 samples.

Results

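SbGhd7 and 5 other genes of the flowering pathway were followed in the leaves of Sorghum bicolor. The data were 6 RNA-seq libraries with 34129 gene models. The 6 genes were chosen by identifier. They were the overexpressed gene SbGhd7, also known as Ma6 (Sobic.006G004400.v3.2), the activator EHD1 (Sobic.001G227900.v3.2), the CONSTANS relative CO (Sobic.010G115800.v3.2), and the florigen relatives CN8 (Sobic.009G199900.v3.2), CN12 (Sobic.003G295300.v3.2) and CN15 (Sobic.010G045100.v3.2). The tested leaves came from plants labelled SbGhd7 OE (3 libraries) and their controls from plants labelled empty vector (3 libraries), all 4 weeks old. The labels name neither the promoter of the transgene, nor the number of independent lines, nor the day length and hour of sampling, and nothing in them says that libraries of a group are separate plants. The p-values therefore set the difference between groups against the variation among these particular libraries, part of which may be technical. They may not extend to other plants or lines. The comparison asks, per the title of the series, how SbGhd7 acts on genes that activate flowering.

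In grasses, day length reaches the shoot tip through a short chain of leaf genes. Ghd7, a CCT-domain protein first described in rice, lowers the transcription of Ehd1, a B-type response regulator found in grasses. Ehd1 raises the transcription of florigen genes, whose products are small FT-like proteins that travel from leaf to shoot tip and start flowering there. CONSTANS genes also act on florigen genes. CN8, CN12 and CN15 are FT relatives of sorghum for which a florigen role has been proposed. The names above rest on general knowledge of sorghum gene names, since no table used here pairs them with identifiers.

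The deposited counts summed to between 27844391 and 35830080 per library. Levels below are in CPM, counts relative to the library total, scaled by the trimmed mean of M-values (TMM), and fold changes are SbGhd7 OE over empty vector. All 5 leaf photosynthesis genes used as a tissue check had at least 203.5 CPM in every library, and the axillary bud gene Tb1 had no count in any. Of these 5 leaf genes (background share called, 53.3%), 3 were called higher in SbGhd7 OE (CA1 20.5-fold, PEPC 4.39-fold and PPDK 2.25-fold), NADP-ME was called lower (log2 fold change -0.99) and RBCS did not pass (edgeR adjusted p = 0.15). Their part in the results below was not tested. Empty vector replicate 3 and SbGhd7 OE replicate 2 lay apart from the rest of their group on the second principal component, which held 7.09% of the variance. For the genes chosen by identifier, results that rest on either library are given with and without it. RBCS was lower in empty vector replicate 3 (1883.4 CPM) than in SbGhd7 OE replicate 1 (1966.2 CPM), the lowest of that group. The RBCS test was not repeated without that control.

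**Figure D1:**
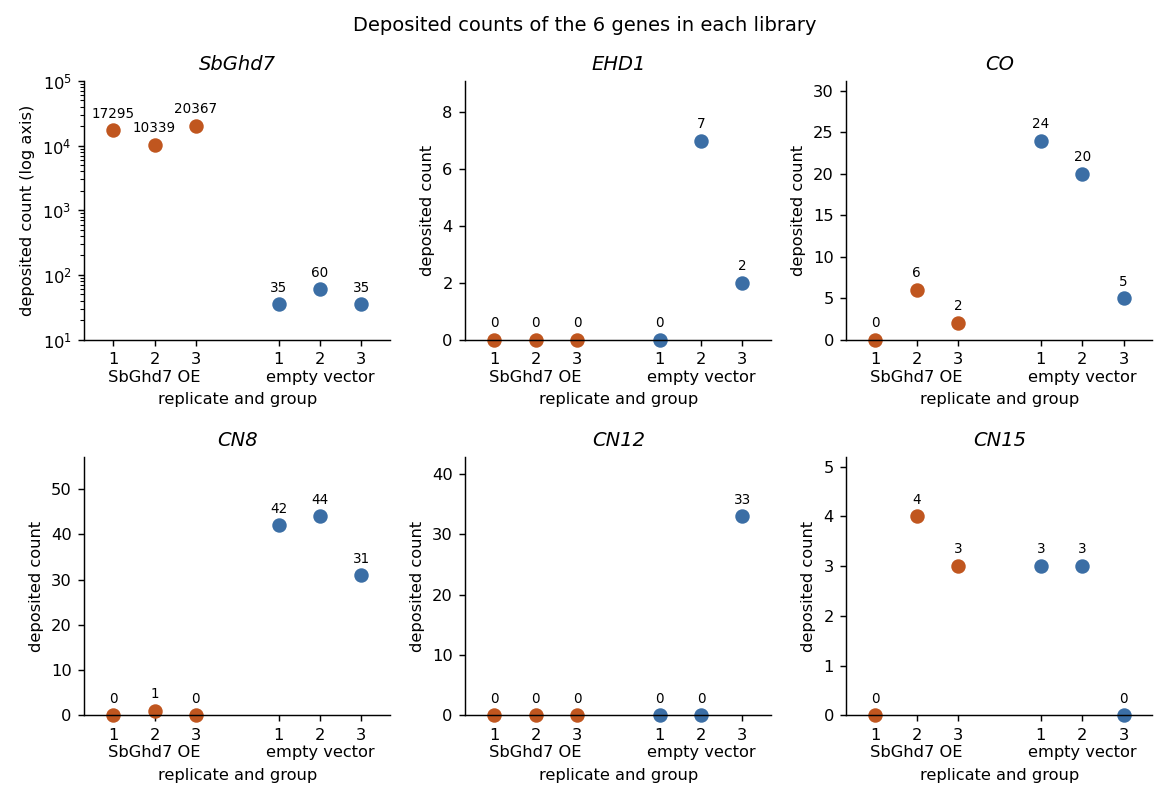
Deposited counts of the 6 genes in each library, with SbGhd7 OE libraries in orange and empty vector libraries in blue. The value stands above each point, the y axis of SbGhd7 is logarithmic, and the other y axes are linear from 0. SbGhd7 and CN8 are the 2 genes whose groups do not overlap: SbGhd7 had 10339 counts or more in SbGhd7 OE and 60 or fewer in empty vector, and CN8 had 1 or fewer in SbGhd7 OE and 31 or more in empty vector.

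SbGhd7 itself was higher in every SbGhd7 OE library than in any empty vector library. It stood at 642.8, 336.5 and 734.03 CPM in SbGhd7 OE replicates 1, 2 and 3, against 1.12, 1.94 and 0.948 CPM in empty vector replicates 1, 2 and 3. The lowest SbGhd7 OE library, replicate 2, was thus still far above the highest control. The log2 fold change was 8.75 (SE 0.454, n = 3 each; adjusted p = 1.0e-05, edgeR quasi-likelihood test), and an exact two-sided permutation test over the libraries gave p = 0.1, the smallest value that 3 against 3 allow. SbGhd7 was the only gene model, 1 of 34129, with 10000 counts or more in each SbGhd7 OE library and at most 60 in every empty vector library, limits set after its values were seen. Yet 30 of the 20820 genes tested had a larger fitted rise, 26 of them with no count in the controls, where the fitted size depends on a prior count. Counts per gene model cannot tell the transgene's transcripts from those of the resident gene.

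CN8, a florigen relative, was nearly absent from SbGhd7 OE leaves and low in the controls. Its deposited counts were 0, 1 and 0 in SbGhd7 OE replicates 1, 2 and 3, against 42, 44 and 31 in empty vector replicates 1, 2 and 3. Every control library held the transcript at 0.839 CPM or more, and the only SbGhd7 OE library with a count held 0.0325 CPM. The fall was called (log2 fold change -6.26, SE 0.814, n = 3 each; edgeR adjusted p = 3.8e-04; exact permutation p = 0.1). The ratio of summed counts per library total, SbGhd7 OE over empty vector, was 0.00945 (exact 95% interval 0.000237 to 0.0537). Halving all values, because 1 deposited count may not be 1 fragment, gave a ratio of 0.0187 with an interval up to 0.109. The intervals cover counting error only. Without SbGhd7 OE replicate 2, CN8 had no count in that group and was called again (edgeR adjusted p = 0.0013; 4.0e-06 to 0.003 over 15 alternatives, DESeq2 and limma-voom included).

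SbGhd7 and CN8 were the only 2 of the 6 genes with enough counts to pass the expression filter, and both were called, 1 higher and 1 lower. CN8 passed the filter only through the empty vector libraries. There it was low as well (1.34, 1.42 and 0.839 CPM in replicates 1, 2 and 3), though above every SbGhd7 OE library. A gene kept in that way can hardly be other than lower in SbGhd7 OE. Of all 20820 tested genes 53.3% were called, 28.0% higher and 25.3% lower, and 64.0% had CPM values that did not overlap between the groups. Being called, or being free of overlap, therefore does not set the pair apart. A larger fitted fall than that of CN8 was seen for 31 of the tested genes, 24 of them with no count in SbGhd7 OE. The fitted size for CN8 rests on 1 count in SbGhd7 OE replicate 2. It was -8.21 without that library and -5.27 with halved values, so this rank does not set CN8 apart either. Of all gene models, 10 of 34129 had 30 or more counts in every empty vector library and at most 1 in every SbGhd7 OE library, limits set after CN8 was seen. The mirror pattern, 30 or more in every SbGhd7 OE library and at most 1 in every control, held for 32.

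**Figure D2:**
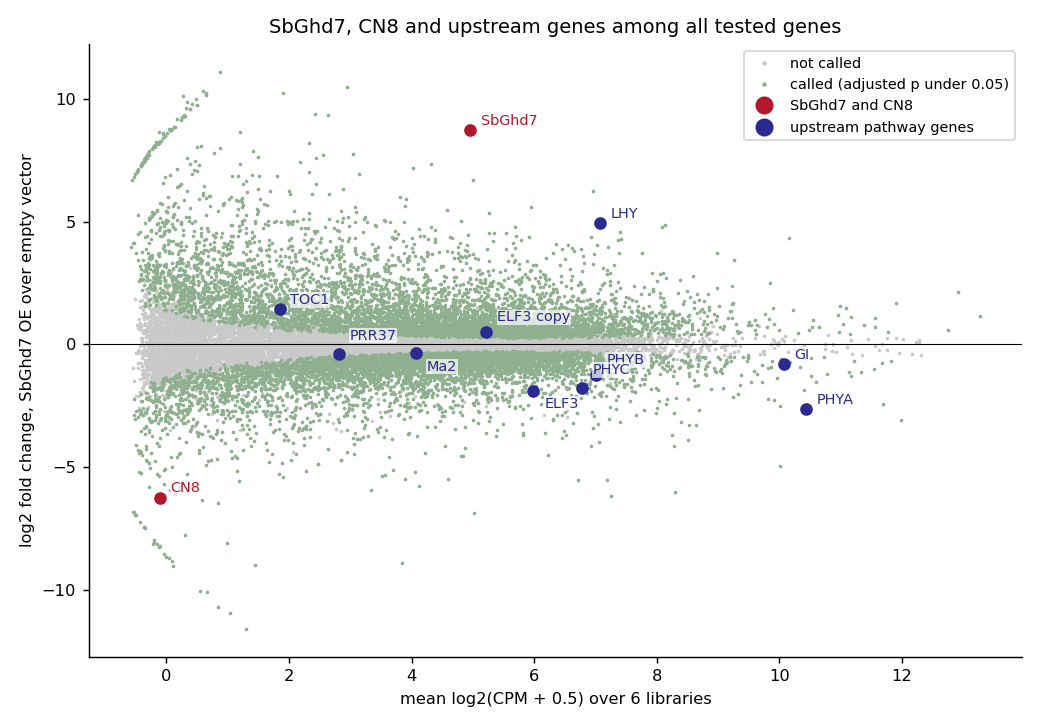
Log2 fold change of SbGhd7 OE over empty vector (y) against mean log2(CPM + 0.5) over the 6 libraries (x) for the 20820 tested genes, called genes in green. SbGhd7 at 8.75 and CN8 at -6.26 (red) lie near the upper and lower edges of the cloud, while the upstream pathway genes (dark blue) other than LHY lie between -2.65 and 1.43.

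EHD1, the response regulator that links Ghd7 to florigen genes in rice, was at the edge of detection in both groups. It had 0 counts in all 3 SbGhd7 OE libraries, against 0, 7 and 2 counts in empty vector replicates 1, 2 and 3. The groups overlap, because the first control was also at 0, and most of the control counts came from 1 library. If 1 count is 1 fragment, 0 counts summed over SbGhd7 OE allow a level of up to 0.0351 CPM (3 counts). The mean in empty vector was 0.0936 CPM. If 1 fragment gives more than 1 count, that bound is higher. The exact 95% interval of the ratio of summed counts, SbGhd7 OE over empty vector, ran from 0 to 0.560, and with halved values from 0 to 1.21, for counting error only. In a fit with no count filter EHD1 did not pass (edgeR adjusted p = 0.16; exact permutation p = 0.4). In that fit 41.3% of 26611 genes were called, and 53.6% had groups that did not overlap. Over all 34129 gene models, of which 26611 had any count, 266 (0.779%) had 9 or more counts summed over the controls and none in SbGhd7 OE. EHD1 was among them, and the limit of 9 was set to its own sum after its values were seen. The mirror pattern held for 559 (1.64%).

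CO, a CONSTANS-type zinc finger gene, had lower summed counts in SbGhd7 OE but did not pass the test. Its counts were 0, 6 and 2 in SbGhd7 OE replicates 1, 2 and 3, against 24, 20 and 5 in empty vector replicates 1, 2 and 3. The overlap came from the 2 libraries that stood apart: SbGhd7 OE replicate 2, the highest of its group at 0.195 CPM, exceeded empty vector replicate 3, the lowest of its group at 0.135 CPM. The log2 fold change with no filter was -2.45 (SE 1.09, n = 3 each; unadjusted p = 0.048, edgeR adjusted p = 0.098; exact permutation p = 0.2). The ratio of summed counts was 0.180 (exact 95% interval 0.0738 to 0.384; with halved values 0.0447 to 0.512), again for counting error only. Leaving out either library alone kept CO just short of the threshold (edgeR adjusted p = 0.0501 without empty vector replicate 3 and 0.0508 without SbGhd7 OE replicate 2). Leaving out both removes the highest SbGhd7 OE value and the lowest control value, so the gap widens by construction. That choice, made after seeing the data, gave a log2 fold change of -4.13 (SE 1.16) that passed (edgeR adjusted p = 0.015, 2 libraries per group). It was the single call among 14 alternatives, whose adjusted p-values ranged from 0.015 to 0.28.

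CN12 and CN15, the other florigen relatives, gave no difference that held up. CN12 had 0 counts in all 3 SbGhd7 OE libraries, against 0, 0 and 33 in empty vector replicates 1, 2 and 3. A single control library therefore carries all of its signal, at 0.893 CPM, and without that library no count is left in any other. The exact 95% interval of the ratio of summed counts, SbGhd7 OE over empty vector, ran from 0 to 0.131 (with halved values from 0 to 0.268), which covers counting error only and rests on that library too. The gene did not pass with no filter (edgeR adjusted p = 0.13; exact permutation p = 1). For 7 gene models, CN12 among them, empty vector replicate 3 had 30 or more counts and the other 5 libraries none. That limit was set after the values of CN12 were seen. The same pattern held for 1, 6 and 7 gene models in SbGhd7 OE replicates 1, 2 and 3, and for 0 in empty vector replicates 1 and 2.

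CN15 had 0, 4 and 3 counts in SbGhd7 OE replicates 1, 2 and 3, against 3, 3 and 0 in empty vector replicates 1, 2 and 3. The groups overlap fully, with 1 library at 0 in each. The ratio of summed counts was 1.29 with an exact 95% interval from 0.371 to 4.65, so changes of several-fold either way lie within counting error. CN15 did not pass with no filter (log2 fold change 0.33, SE 1.56; edgeR adjusted p = 0.88; exact permutation p = 0.6), and its sign turned without SbGhd7 OE replicate 2 (-0.20) or without empty vector replicate 3 (-0.26). Whether the changes of CN8, CN12 and CN15 differ from each other was not tested.

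**Figure D3:**
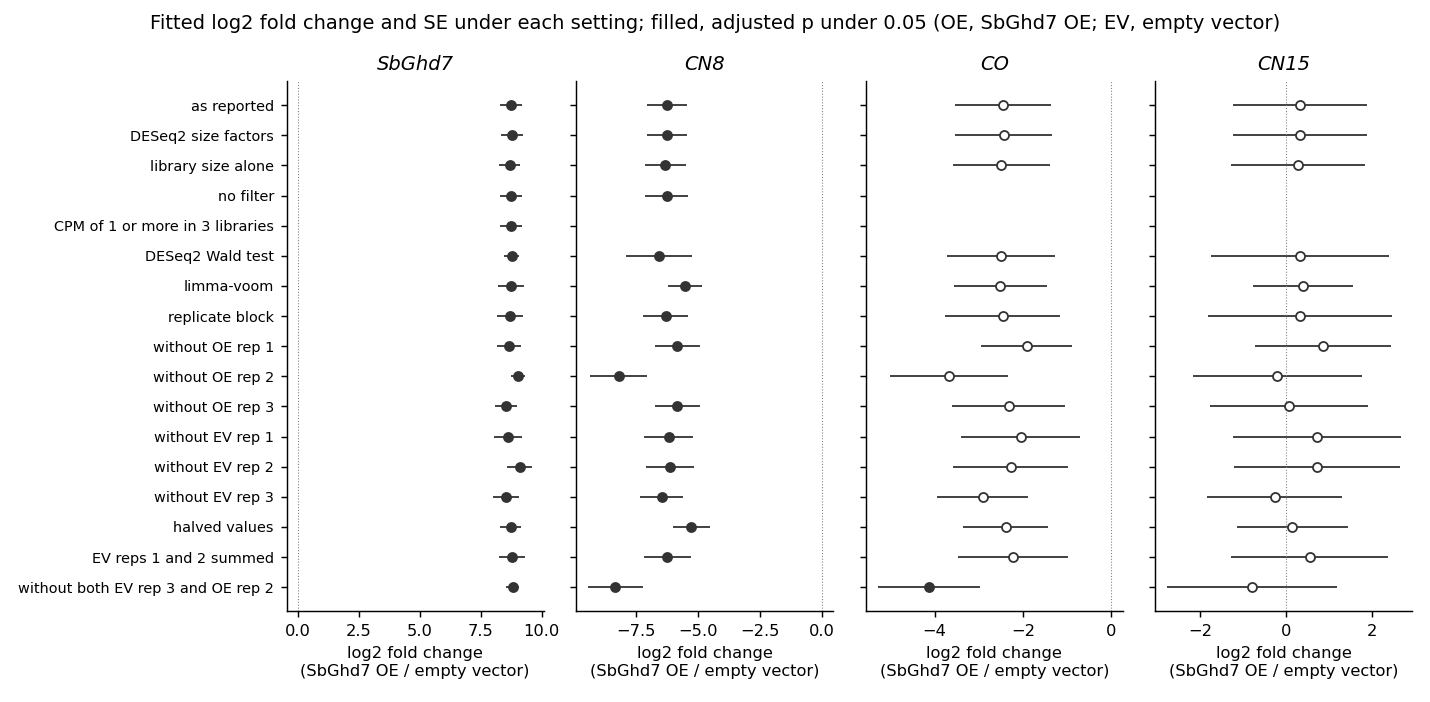
Log2 fold change of SbGhd7 OE over empty vector (x) with its SE (bars) for SbGhd7, CN8, CO and CN15 under each setting (rows), filled where the adjusted p was under 0.05. SbGhd7 and CN8 stay filled in every row in which they were tested, CO is filled only where both empty vector replicate 3 and SbGhd7 OE replicate 2 were left out, and CN15 lies on both sides of 0. CO and CN15 were fitted with no count filter throughout and have no point in the filter rows.

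By library, CO, CN8 and CN15 had their lowest control and their highest SbGhd7 OE values in the same libraries. Among the controls, empty vector replicate 3 had the lowest CO, CN8 and CN15 values and the only CN12 counts, while EHD1 was highest in replicate 2. In SbGhd7 OE, replicate 2 had the highest counts of CO, CN8 and CN15, and the lowest level of SbGhd7. These orders rest on very few counts. In SbGhd7 OE replicates 1, 2 and 3, CN8 had 0, 1 and 0 counts and CN15 had 0, 4 and 3. The control counts of CN15 were 3, 3 and 0. EHD1 and CN12 were at 0 throughout SbGhd7 OE. The association of these values with either library's position on the second component was not tested.

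Upstream of these genes, phytochromes perceive red and far-red light, the clock and clock-associated genes time the response to it, and the maturity genes delay flowering in long days. Of 10 such genes, all tested, 2 rose, 5 fell and 3 did not pass, with a median log2 fold change of -0.61 against -0.0042 over all tested genes, of which 53.3% were called. The genes of all 3 phytochromes fell. The identifier taken as PHYA (Sobic.001G111500), for the far-red sensor, had 684.08, 433.01 and 556.7 CPM in SbGhd7 OE replicates 1, 2 and 3, against 3315.5, 3096.7 and 4104.7 CPM in empty vector replicates 1, 2 and 3. Its log2 fold change was -2.65 (SE 0.220, n = 3 each; edgeR adjusted p = 4.4e-05), the lowest of the 10. PHYC and PHYB, which underlie the maturity loci Ma5 and Ma3, had log2 fold changes of -1.79 and -1.24. For each phytochrome the groups did not overlap, as for 64.0% of all tested genes.

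The clock and clock-associated genes moved in both directions. LHY, a morning MYB factor, rose, and all of its SbGhd7 OE libraries had 551.6 CPM or more, against 30.8 CPM or less in empty vector libraries. ELF3 of the evening complex and GI, a clock-associated gene that acts ahead of CONSTANS in Arabidopsis, fell (log2 fold change -1.91 and -0.82). A second ELF3 copy was called higher by a small margin (log2 fold change 0.50, edgeR adjusted p = 0.015). That call was lost without SbGhd7 OE replicate 1, empty vector replicate 1 or empty vector replicate 2 (edgeR adjusted p = 0.055, 0.063 and 0.077; 0.0019 to 0.077 over 16 alternatives), and with empty vector replicates 1 and 2 summed (0.068). TOC1, an evening clock gene, had 2.08, 10.5 and 4.11 CPM in SbGhd7 OE replicates 1, 2 and 3, against 2.17, 1.65 and 2.38 CPM in empty vector replicates 1, 2 and 3. It overlapped between the groups and missed the threshold (log2 fold change 1.43, edgeR adjusted p = 0.056). Leaving out SbGhd7 OE replicate 2 lowered that value to 0.58 (edgeR adjusted p = 0.22). It passed without SbGhd7 OE replicate 1 (edgeR adjusted p = 0.0096) and in DESeq2 (adjusted p = 0.013), the only 2 of 16 alternatives to call it (adjusted p 0.0096 to 0.22).

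The maturity genes PRR37 (Ma1, a floral repressor) and Ma2 did not pass. PRR37 had 3.23, 9.18 and 5.55 CPM in SbGhd7 OE replicates 1, 2 and 3, against 8.28, 9.94 and 5.52 CPM in empty vector replicates 1, 2 and 3. Its groups overlapped. The pair of libraries left out for CO also held the highest SbGhd7 OE value and the lowest control value of PRR37. Leaving out that pair therefore widens the gap by construction. That choice, made after seeing the data, gave a log2 fold change of -1.05 that passed (edgeR adjusted p = 0.017). It was the only call of PRR37 among 16 alternatives (adjusted p 0.017 to 0.82). Ma2 lay between 14.5 and 14.7 CPM in SbGhd7 OE libraries, and between 14.6 and 22.1 CPM in empty vector libraries (edgeR adjusted p = 0.11; without empty vector replicate 1, 0.038; 0.038 to 0.35 over 16 alternatives).

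**Figure D4:**
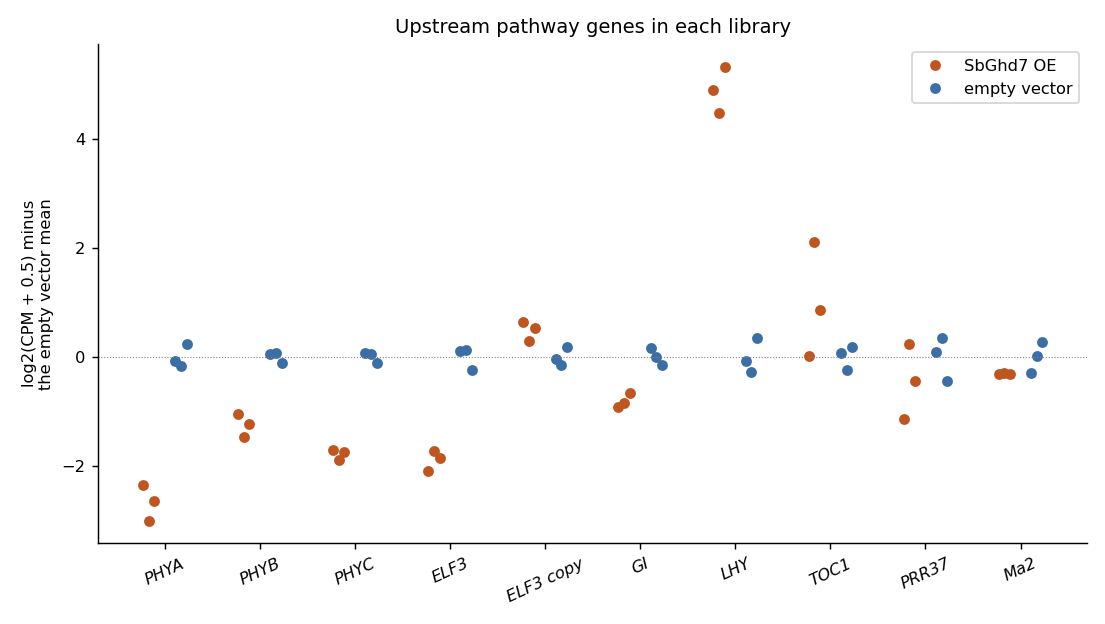
Log2(CPM + 0.5) of 10 upstream genes in each library (y), minus the gene's mean over the empty vector libraries, with SbGhd7 OE in orange to the left of empty vector in blue. PHYA, PHYB, PHYC, ELF3 and GI lie below 0 in all 3 SbGhd7 OE libraries, LHY and the second ELF3 copy above it, and TOC1, PRR37 and Ma2 overlap with the controls.

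The genes with profiles most like those of SbGhd7 and CN8 were sought by the root mean square difference of log2(CPM + 0.5) over the 6 libraries, each profile centred on its own mean. Nearest to SbGhd7 were Sobic.003G237600 (difference 0.58) and Sobic.005G037300 (0.84). Sobic.003G237600 had 3697, 2948 and 2605 counts in SbGhd7 OE, against 0, 0 and 7 in empty vector, and its replicate 2 was not the lowest of SbGhd7 OE, as it was for SbGhd7. Sobic.005G037300 had 2549, 1536 and 1726 counts in SbGhd7 OE, against 0, 0 and 10 in empty vector, and replicate 2 was its lowest SbGhd7 OE library. Nearest to CN8 were Sobic.006G147450 (0.11), with 4, 4 and 3 counts in SbGhd7 OE against 47, 46 and 41 in empty vector, and Sobic.002G295200 (0.11), with 3, 9 and 4 counts in SbGhd7 OE against 60, 56 and 40 in empty vector. Because of the pseudocount this measure understates differences of low genes, and both neighbours kept some counts in SbGhd7 OE where CN8 had 1 in all.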

How the data were processed

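Leaf RNA was extracted with TRIzol and DNase I and made into libraries with a NEBNext Ultra kit, per the labels' protocols. HISAT2 2.2.1, StringTie 2.2.1 and DESeq2 2.11.40.7 are named in the submitters' processing notes without roles. The sources used here give neither genome build nor strand setting, so antisense and overlapping genes, and related copies, could not be told apart. The authors deposited 1 file of whole, unscaled values per library, treated here as estimated counts. The value 2 was 2.91 to 3.57 times as frequent as the value 1 in each library, so 1 count need not be 1 fragment.

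Groups came from the sample titles. Counts were filtered with filterByExpr, scaled by TMM and tested with edgeR 4.0.16 (robust quasi-likelihood, R 4.3.3; group only; Benjamini-Hochberg over 20820 genes, threshold 0.05). Genes below the filter were read from the same fit with no filter (26611 genes). The procedure was tested on simulated data in which few genes changed, and by less than SbGhd7 or CN8 did here. That test does not cover a change in as many genes as were called here. SE is the absolute log2 fold change over the square root of F. A pseudocount of 0.5 CPM was used for permutation tests and profiles. Ratios of summed counts have exact (Clopper-Pearson) intervals. DESeq2 1.42.0, limma-voom (limma 3.58.1), other scalings, filters and left-out libraries were alternatives. Empty vector replicates 1 and 2 were the closest pair (median chi-square of 1.93 over genes, against 4.02 to 7.04 for other pairs of a group) and were kept as 2 libraries, with a summed alternative.

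Genes named were the 6 members, 10 upstream genes, 5 leaf genes, Tb1, and the 2 genes nearest in profile to SbGhd7 and to CN8. Members and lists were chosen with earlier results of these data known. The RefSeq table used matched 0 of the 34129 identifiers, so positions and sequences are not given.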

Additional observations from a re-analysis of the deposited data

How the results depend on the processing

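Leaving out both empty vector replicate 3 and SbGhd7 OE replicate 2 was chosen after seeing the data. SbGhd7 and CN8 kept their direction and their call under every setting that tested them. Leaving out 1 library gave log2 fold changes between 8.52 and 9.09 for SbGhd7 and between -8.21 and -5.83 for CN8. CN8 missed the stricter filter (3 libraries at 1 CPM), and EHD1, CO, CN12 and CN15 missed both count filters, so these have no value there, nor has CN12 without empty vector replicate 3. EHD1 and CN12 were not called in any fit. CO was called only without both libraries named above (log2 fold change -4.13, adjusted p = 0.015). CN15 ranged from -0.26 to 0.87 when 1 library was left out and was -0.79 without both. The number of genes called was 11087, and 8850 to 11396 otherwise. Library size alone gave 5332 higher and 5864 lower, against 5829 and 5258. Between 6 and 8 upstream genes were called. The replicate numbers did not pair the libraries: deviations of same-numbered libraries correlated at -0.0032, -0.072 and -0.15 across genes, and none was closest to its own number. With the replicate number as a block, 9848 genes were called, with SbGhd7 at 8.70 and CN8 at -6.31, and no call on the 6 genes changed. EHD1, CO, CN12 and CN15 held 49 counts or fewer over the 3 controls. For CO, EHD1 and CN12 the counting interval excluded a ratio of 1 while the test over libraries did not pass. With halved values the interval of EHD1 ran up to 1.21, and that of CN12 rests on 1 library.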
